A study of Mus musculus with 6 samples.

Results

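The genes described here encode the core machinery that makes microRNAs (miRNAs) and uses them to silence messenger RNAs. They were chosen by gene symbol: Drosha, Dgcr8, Xpo5, Dicer1, the Argonaute genes Ago1 to Ago4, and the GW182 genes Tnrc6a and Tnrc6b. All 10 were present among the 24421 genes of the count matrix, and all 10 passed the filter on low counts together with 11658 genes in all. The transcripts were measured by RNA sequencing (RNA-seq) in splenic CD4+YFP+ regulatory T (Treg) cells of female mice aged 8 to 11 weeks, with 3 Foxp3Cre (WT) libraries and 3 Foxp3Cre miR-142fl/fl (KO) libraries. Both groups carried Foxp3Cre, an allele that drives a fusion of Cre recombinase and yellow fluorescent protein (YFP) from the endogenous Foxp3 promoter, so the WT cells carried Cre as well. In KO mice Cre removed the floxed miR-142 gene in cells that had expressed Foxp3. The question was how transcripts of the shared miRNA machinery compared between WT cells and cells with this 1 abundant miRNA gene deleted. The paper reports fatal systemic autoimmunity in the KO mice, and names as a caveat that inflammation could itself alter Treg gene expression. Genotype and disease thus differed together, and their parts in any difference between the groups cannot be told apart here.

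A miRNA gene is transcribed into a long primary transcript from which the nuclear Microprocessor, made of the RNase III enzyme Drosha and its RNA-binding partner Dgcr8, cuts out a hairpin. Exportin 5, encoded by Xpo5, carries the hairpin to the cytoplasm, where Dicer1 trims it to a short duplex. One strand is loaded into an Argonaute protein, which finds target messages by pairing with bases of the seed, and GW182 proteins recruit the enzymes that shorten the poly(A) tail and remove the cap. Loss of Dicer1 or Drosha in Treg cells is known to cause fatal autoimmunity in mice.

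The deleted gene gives rise to miRNAs from both arms of its hairpin, and their sequences are shown because they define the target sites searched for below. The mature sequences are from RefSeq on GRCm38 and the capitals mark the seed, bases 2 to 8.
mmu-miR-142a-3p (chr11:87756903-87756925, plus strand): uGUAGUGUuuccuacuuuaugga
mmu-miR-142a-5p (chr11:87756867-87756887, plus strand): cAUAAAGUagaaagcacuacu

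Sites complementary to these seeds were present in the 3′ untranslated regions (3′ UTRs) of 4 of the 10 genes. The longest 3′ UTR of each gene in GENCODE vM21 was searched, on the transcript strand only, for the 8-base sites of miR-142-3p, ACACTACA and, shifted by 1 base, AACACTAA, and for the 8-base site of miR-142-5p, ACTTTATA. The first 7 or the last 7 bases of each also counted as a site, and overlapping matches of the same motif were counted once. Ago3 held 6 sites, Ago2 held 4, Tnrc6b held 2 and Ago1 held 1. The 5 sites below show the 3 of 8 bases and the first site of Ago1 and of Tnrc6b. Each is printed 5′ to 3′ in the sense of the transcript with its site in capitals, all lie in the last exon, and coordinates are those of the site in GRCm38.
Ago2, miR-142-3p (chr15:73096035-73096042, minus strand, exon 19 of 19): tataaactAACACTAAaggtttgc
Ago3, miR-142-3p (chr4:126343631-126343638, minus strand, exon 19 of 19): gaggacagACACTACAgatgtttg
Ago3, miR-142-5p (chr4:126333646-126333653, minus strand, exon 19 of 19): atataaatACTTTATAacactcta
Ago1, miR-142-5p (chr4:126435258-126435264, minus strand, exon 19 of 19): tgggtttcACTTTATtttctaaa
Tnrc6b, miR-142-5p (chr15:80935236-80935242, plus strand, exon 25 of 25): aaccccaaACTTTATtctccatg

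The 3′ UTRs that held sites were long, at 4491 bases in Ago1, 11064 in Ago2, 12742 in Ago3 and 11609 in Tnrc6b. No site was found in the 3′ UTRs of Dicer1 (3851 bases), Ago4 (3682), Tnrc6a (2345), Dgcr8 (1574), Xpo5 (1327) or Drosha (169), which says only that these letters were not in these windows. Sites were thus present in 4 of 10 members, against 37.4% of the 11107 tested genes with an annotated 3′ UTR. For miR-142-3p alone they were present in 2 of 10, Ago2 and Ago3, against 22.6% of tested genes. Of the 1771 tested genes with a 3′ UTR of at least 3000 bases, 75.6% held a site and 52.3% held one for miR-142-3p. The members of that length were Ago1, Ago2, Ago3 and Tnrc6b, which held a site, and Dicer1 and Ago4, which did not. Among them only Ago2 and Ago3 held one for miR-142-3p. A match to these letters is a description of the sequence and not evidence that the miRNA binds there.

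Before any comparison, the labels were checked. Total counts ranged from 13883069 to 24042994 per library, and 3 counts corresponded to 0.123 to 0.227 normalized CPM (counts scaled to library size after TMM scaling). Mir142 itself had 0 counts in every library, and Mir142b, the antisense annotation over the deleted gene, measured 4.14 to 9.05 normalized CPM in WT and 0.342 to 0.389 in KO. It was lower in KO by edgeR's quasi-likelihood F (QLF) test (log2 fold change -4.07, SE 0.39, FDR = 0.00132). The summed level of 7 Treg markers was 4820 to 5550 normalized CPM in WT and 6760 to 7690 in KO. Most of that difference came from Il2ra (726 to 799 in WT and 2260 to 3070 in KO), Foxp3 measured 536 to 595 in WT and 642 to 749 in KO, and Cd4 (1010 to 1040 in WT and 833 to 926 in KO) and Cd3e (626 to 733 in WT and 590 to 594 in KO) were lower in every KO library. KO replicate 1 stood apart. Its 9 measured neutrophil markers summed to 825 normalized CPM, against at most 1.29 in WT, where S100a8, Retnlg and Cxcr2 were at 0 counts, and 7.72 and 40.5 in KO replicates 2 and 3. Its 10 monocyte and macrophage markers summed to 2790, against 48.4 to 56.8 in WT and 157 and 79.5 in the other KO libraries, and its 8 measured B cell markers to 237, against 15.0 to 21.9 in WT and 8.18 and 12 in the other KO libraries. All of the monocyte and macrophage markers, all of the measured B cell markers and 8 of the 9 neutrophil markers were highest there. KO replicate 1 also held the lowest of the 6 values for Dicer1, Xpo5, Ago1, Ago3, Tnrc6a and Tnrc6b and the highest for Ago4. The part of these other cells in the results was not tested, and the values of the machinery genes are therefore given with and without this library. In bulk RNA-seq, fewer cells of a type and less RNA per cell cannot be told apart.

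None of the 10 machinery genes passed the test between KO and WT. The QLF test called 0 of 10 at an FDR of 0.05, where 18.8% of all tested genes were called, and at an unadjusted p under 0.05 it held 1 higher gene, Ago4, and 1 lower gene, Ago1, against 34.8% of all tested genes. DESeq2 and edgeR's exact test also called 0, and edgeR's likelihood ratio test called 1, Ago4. The log2 fold changes, KO over WT, were below 0 for 8 genes, with a median of -0.14 over the 10 against 0.02 over all tested genes. Their median absolute log2 fold change was 0.16, against 0.26 over all tested genes. The WT and KO libraries did not overlap for 3 of the 10, Drosha, Ago1 and Ago4, against 41.0% of all tested genes. With 3 mice per group the smallest p of an exact permutation test is 0.1.

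**Figure D1:**
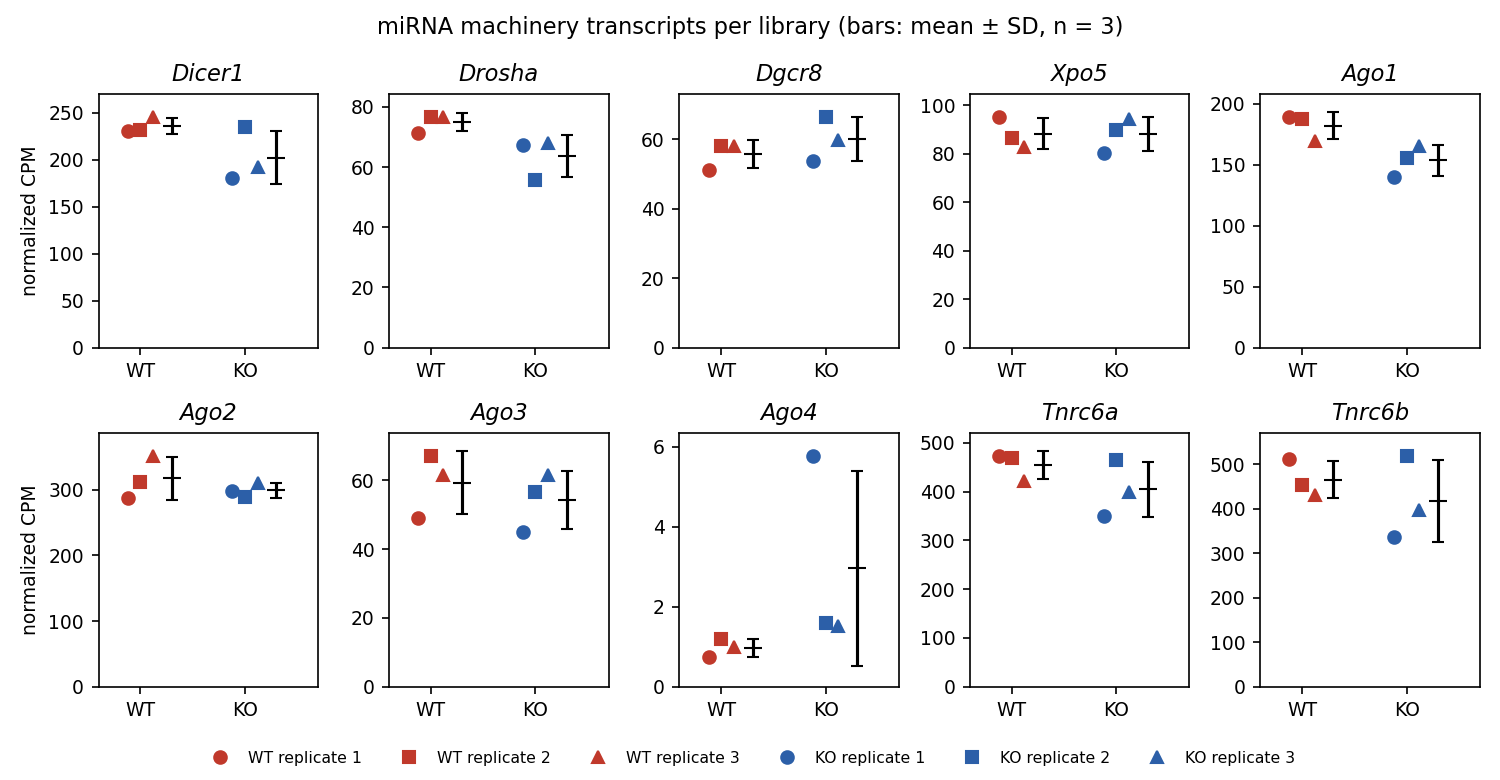
Normalized CPM (y axis, linear from 0) of the 10 machinery genes in the 3 WT (red) and 3 KO (blue) libraries. Symbols are replicates 1, 2 and 3, and bars beside them are the mean ± SD (n = 3). KO replicate 1, the blue circle, is the lowest of the 6 libraries for Dicer1, Xpo5, Ago1, Ago3, Tnrc6a and Tnrc6b and the highest for Ago4.

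The Microprocessor genes lay on opposite sides of their WT levels, and neither difference passed the test. Drosha (chromosome 15, 12824815 to 12935291, plus strand) measured 71.4, 76.8 and 76.7 normalized CPM in WT replicates 1 to 3 and 67.4, 55.8 and 68.2 in KO replicates 1 to 3. Every KO library was below every WT library, by a small margin between WT replicate 1 and KO replicate 3. The means were 74.9 ± 3.09 and 63.8 ± 6.93, a log2 fold change of -0.23 (SE 0.10, 95% interval -0.47 to 0.01, FDR = 0.155 in the QLF test). It was -0.29 without KO replicate 1 and -0.14 without KO replicate 2. Dgcr8 (chromosome 16, 18253948 to 18289246, minus strand) measured 51.2, 58.2 and 58.2 normalized CPM in WT and 53.7, 66.6 and 60.0 in KO. The groups overlapped. The log2 fold change was 0.10 (SE 0.11, 95% interval -0.15 to 0.36, FDR = 0.545 in the QLF test), 0.16 without KO replicate 1, 0.03 without KO replicate 2 and 0.02 without WT replicate 1. Exons of Dgcr8 share 825 bases, 10.7% of its exon length, with Trmt2a on the opposite strand. Reads were counted without regard to strand, so those of the 2 genes cannot be told apart there.

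Xpo5, the exporter of hairpin precursors (chromosome 17, 46202782 to 46243598, plus strand), was level between the groups. It measured 95.4, 86.4 and 83.0 normalized CPM in WT and 80.5, 90.0 and 94.3 in KO. The libraries of the groups interleaved, and the means were 88.3 ± 6.42 and 88.3 ± 7.07. The 95% interval of the log2 difference ran from -0.23 to 0.23 (SE 0.10, FDR = 0.9995 in the QLF test), which spans a fall of 14.6% and a rise of 17.1%. The estimate was 0.05 without KO replicate 1.

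Dicer1, whose enzyme makes the mature duplex (chromosome 12, 104687742 to 104751952, minus strand), showed tight WT values and spread KO values. It measured 229.9, 231.2 and 245.7 normalized CPM in WT and 180.2, 234.5 and 191.9 in KO. KO replicates 1 and 3 were below every WT library, while KO replicate 2 lay within the WT range. The means of 235.6 ± 8.76 and 202.2 ± 28.6 gave a log2 fold change of -0.22 (SE 0.11, 95% interval -0.49 to 0.05, FDR = 0.213 in the QLF test). The outcome of the test depended on 1 library. Without KO replicate 2 the log2 fold change was -0.33 (FDR = 0.0330), and without KO replicate 1 it was -0.16 (FDR = 0.371).

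The Argonaute genes differed in level and in how their KO libraries lay. Ago1, Ago3 and Ago4 are neighbours on the minus strand of chromosome 4 (126435012 to 126468583, 126331704 to 126429556 and 126489541 to 126533472), and Ago2, the paralog whose protein can cleave a fully paired target, lies on chromosome 15 (73095844 to 73184935, minus strand). Ago1 measured 189.4, 187.1 and 169.1 normalized CPM in WT and 140.3, 155.2 and 165.5 in KO. All KO libraries were lower than all WT libraries, with KO replicate 3 close to WT replicate 3. The means were 181.9 ± 11.1 and 153.6 ± 12.7, a log2 fold change of -0.24 (SE 0.09, 95% interval -0.47 to -0.02, FDR = 0.114 in the QLF test), or -0.20 without KO replicate 1. Ago1 was the only member other than Ago4 whose unadjusted interval left out 0.

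Ago2 measured 288.0, 312.1 and 352.1 normalized CPM in WT and 298.6, 288.4 and 310.6 in KO. The KO libraries all lay within the WT range, with means of 317.4 ± 32.4 and 299.2 ± 11.1 and a log2 fold change of -0.09 (SE 0.10, 95% interval -0.32 to 0.15, FDR = 0.583 in the QLF test). It was -0.10 without KO replicate 1, and it ranged from -0.18 without WT replicate 1 to -0.01 without WT replicate 3. Ago3 measured 49.2, 67.2 and 61.5 normalized CPM in WT and 45.0, 56.6 and 61.4 in KO. The groups overlapped, and WT replicate 1 was low as well as KO replicate 1. Its log2 fold change was -0.13 (SE 0.16, 95% interval -0.50 to 0.24, FDR = 0.611 in the QLF test). It was -0.02 without KO replicate 1, -0.03 without WT replicate 2, -0.24 without KO replicate 3 and -0.27 without WT replicate 1. Ago2 and Ago3, which hold the miR-142-3p sites printed above, showed no difference that passed the test, and both estimates lay below 0. Their 95% intervals reached a rise of 10.65% for Ago2 and 18.34% for Ago3. Whether miR-142 acts on either gene was not tested, and these data hold RNA and not protein.

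Ago4 was barely detected in WT and its difference rested on 1 KO library. It had 12, 29 and 18 counts in WT and 104, 21 and 22 counts in KO, or 0.739, 1.19 and 0.996 normalized CPM in WT and 5.77, 1.59 and 1.51 in KO. All KO libraries were above all WT libraries, and KO replicate 1, the library with the neutrophil, monocyte and macrophage and B cell transcripts, was far above the other 2. The means of 0.974 ± 0.226 and 2.96 ± 2.44 gave a log2 fold change of 1.60 (SE 0.57, 95% interval 0.25 to 2.95, FDR = 0.0941 in the QLF test). The likelihood ratio test gave an FDR of 0.0440. Without KO replicate 1 the KO mean was 1.55 normalized CPM and the log2 fold change 0.62 (SE 0.34, FDR = 0.241).

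The GW182 genes were the most abundant members in normalized CPM, and their KO libraries were more spread than their WT libraries. Tnrc6a (chromosome 7, 123123885 to 123195296, plus strand) measured 473.6, 469.4 and 421.4 normalized CPM in WT and 350.6, 464.1 and 398.2 in KO. KO replicates 1 and 3 were below every WT library and KO replicate 2 was not. The log2 fold change was -0.17 (SE 0.12, 95% interval -0.45 to 0.11, FDR = 0.364 in the QLF test), -0.09 without KO replicate 1 and -0.27 without KO replicate 2 (FDR = 0.103). Tnrc6b (chromosome 15, 80711313 to 80941085, plus strand) measured 511.4, 453.8 and 430.7 normalized CPM in WT and 337.2, 519.5 and 396.1 in KO. KO replicate 1 was the lowest and KO replicate 2 the highest of all 6 libraries. The log2 fold change was -0.16 (SE 0.16, 95% interval -0.54 to 0.23, FDR = 0.544 in the QLF test), -0.04 without KO replicate 1 and -0.34 without KO replicate 2 (FDR = 0.0891).

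**Figure D2:**
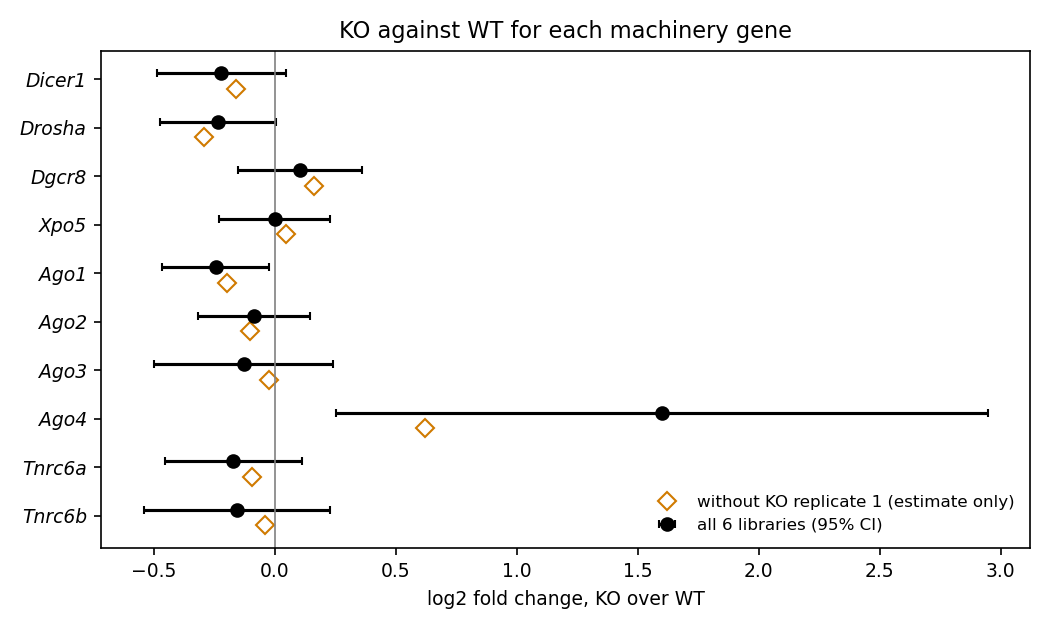
Log2 fold change, KO over WT (x axis), of the 10 machinery genes from all 6 libraries (black, with 95% intervals of the edgeR fit) and without KO replicate 1 (open diamonds, estimate only). Estimates from all libraries lie between -0.24 for Ago1 and 0.10 for Dgcr8, apart from Ago4 at 1.60, which moves to 0.62 without KO replicate 1.

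The 9 genes other than Ago4 had between 737 and 11450 counts per library, and their 95% intervals all lay between a fall of 31.3% (Tnrc6b) and a rise of 28.3% (Dgcr8). The median log2 fold change of these 9 was -0.16, and -0.09 without KO replicate 1, where 5 of them lay closer to 0. An FDR above the threshold does not show that the levels were the same.

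Levels were compared between genes per length, as RPKM (normalized CPM per kilobase of union exons). In WT the order of mean RPKM was Tnrc6a (35.8 ± 2.28), Ago2 (22.6 ± 2.31), Ago1 (22.4 ± 1.37), Tnrc6b (19.7 ± 1.76), Dicer1 (14.1 ± 0.523), Xpo5 (12.9 ± 0.935), Drosha (12.6 ± 0.520), Dgcr8 (7.26 ± 0.521), Ago3 (3.58 ± 0.555) and Ago4 (0.140 ± 0.0325). The ranges of the 3 libraries overlapped between Ago2 and Ago1, Ago1 and Tnrc6b, Dicer1 and Xpo5, and Xpo5 and Drosha, so these neighbours were not separated by the spread. The other neighbours did not overlap, from Tnrc6a over Ago2 (1.58-fold) to Ago3 over Ago4 (25.5-fold). Drosha RPKM was 1.74 times that of its partner Dgcr8 in WT and 1.38 times in KO. Per kilobase of the longest protein-coding transcript, these ratios were 1.27 in WT and 1.0 in KO, where the ranges of the 2 genes overlapped. The order in KO differed in 1 place, with Xpo5 (12.9 ± 1.03) above Dicer1 (12.1 ± 1.71), and those ranges overlapped. The levels depended on the length used: per kilobase of the longest protein-coding transcript, Tnrc6a, Dicer1 and Dgcr8 rose by over 1.5 times, to 55.6, 23.9 and 12.9 RPKM in WT. The WT order then began with Tnrc6a, Tnrc6b (26.85), Ago1 (25.2), Dicer1 and Ago2 (23.0). The ranges of neighbours from Tnrc6b to Ago2 overlapped.

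**Figure D3:**
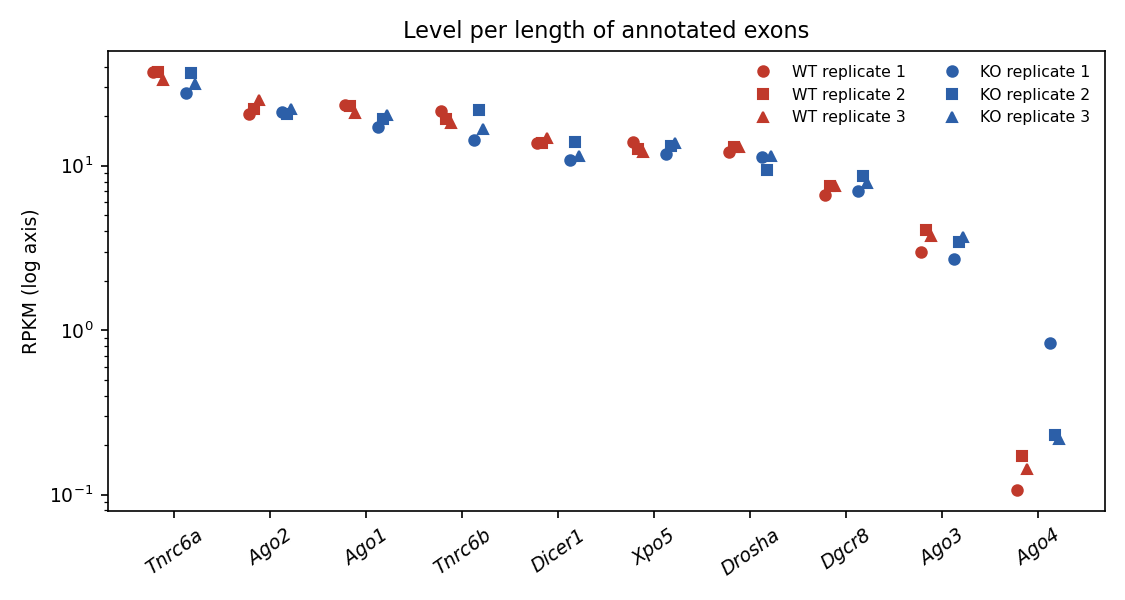
RPKM per union exon length (y axis, log scale) of the 10 machinery genes in WT and KO libraries, in order of the WT mean. Points are single libraries. Tnrc6a is highest at 35.8 RPKM in WT, and Ago3 (3.58) and Ago4 (0.140) are lowest.

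The makeup of the Argonaute family was dominated by Ago1 and Ago2. Of the summed RPKM of Ago1 to Ago4, Ago1 took 41.8 to 49.7% in WT and 41.0 to 44.1% in KO, and Ago2 took 43.7 to 50.4% in WT and 47.5 to 50.5% in KO. Ago3 took 6.32 to 8.18% in WT and 6.45 to 7.98% in KO. The Ago4 share was 0.227 to 0.346% in WT, 0.528% and 0.467% in KO replicates 2 and 3, and 1.97% in KO replicate 1. The summed RPKM of the family was 46.9, 49.5 and 49.8 in WT and 42.1, 43.3 and 46.4 in KO, with all KO libraries below all WT libraries by a margin smaller than the spread within KO. No test was run on these sums or shares.

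Among the GW182 genes, Tnrc6c, the third paralog and not one of the 10, completed the family. Tnrc6a took 46.5 to 48.7% of the summed RPKM in WT and 47.5 to 49.5% in KO, Tnrc6b 25.3 to 27.3% and 25.5 to 28.5%, and Tnrc6c 25.6 to 27.9% and 24 to 25.2%. Only the Tnrc6c shares did not overlap between the groups. Tnrc6c itself measured 260.1, 252.9 and 255.6 normalized CPM in WT and 181.1, 237.0 and 196.3 in KO. Its log2 fold change was -0.32 (SE 0.11, FDR = 0.0848 in the QLF test) and -0.26 without KO replicate 1.

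**Figure D4:**
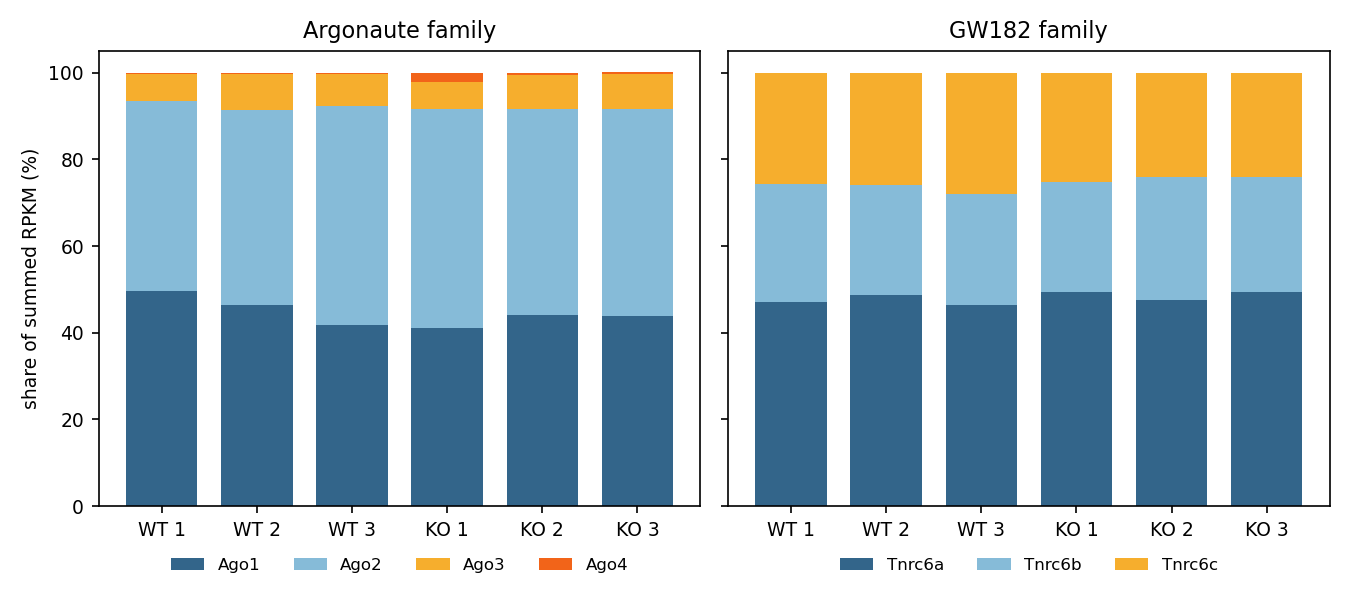
Share of each paralog (y axis, percent of the family's summed RPKM) in each of the 6 libraries, for the Argonaute family (left) and the GW182 family (right). Ago1 and Ago2 fill most of each Argonaute bar, and Ago4 is visible in KO replicate 1 at 1.97%.

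The genes that work with this machinery were read from 4 lists of cofactors, loading factors, effectors and turnover enzymes, of which 74 of 78 genes passed the filter. The QLF test called 2 higher and 2 lower, 5.41% against 18.8% of all tested genes. At an unadjusted p under 0.05, 4 were higher and 10 lower, where 34.8% of all tested genes passed in either direction. The median log2 fold change over the 74 was -0.08, against 0.02 over all tested genes. Of the 74, 56 lay below 0, against 5621 of the 11658 tested genes.

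Of the cofactors of primary and precursor processing, which include the RNA helicases Ddx5 and Ddx17 and the Dicer partners Tarbp2 and Prkra, 17 of 19 were tested and 0 were called by the QLF test, with 1 higher and 3 lower at an unadjusted p under 0.05. The gene with the smallest p was Adar, an adenosine deaminase that edits double-stranded RNA. Adar measured 379.9, 368.4 and 370.5 normalized CPM in WT and 318.7, 314.2 and 308.5 in KO. The groups were well apart with little spread within each. The log2 fold change of -0.25 (SE 0.07) did not pass the QLF test (FDR = 0.0580), and it was -0.28 (FDR = 0.0806) without KO replicate 1. Lin28a and Lin28b, which block processing of let-7, were the untested members of this list.

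Of the Argonaute loading factors and partners, 20 of 22 were tested, and the QLF test called 2 higher and 0 lower. Fkbp5, a co-chaperone of Hsp90 best known as a regulator of the glucocorticoid receptor, measured 121.0, 109.2 and 113.8 normalized CPM in WT and 247.0, 299.4 and 447.7 in KO. Every KO library was well above every WT library, with KO replicate 1 the lowest of the KO libraries. The means rose from 114.7 ± 5.95 to 331.4 ± 104, a log2 fold change of 1.53 (SE 0.21, FDR = 0.00443 in the QLF test), and 1.69 without KO replicate 1.

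Snd1, a nuclease-domain protein found in the silencing complex and also known as a transcriptional coactivator, measured 164.9, 159.7 and 151.5 normalized CPM in WT and 251.7, 253.7 and 248.1 in KO. The KO libraries lay close together and above all WT libraries. The means rose from 158.7 ± 6.76 to 251.1 ± 2.85, a log2 fold change of 0.66 (SE 0.08, FDR = 0.00253 in the QLF test), and 0.64 without KO replicate 1. Its 3′ UTR holds 1 miR-142-3p site of 7 bases, in exon 17 of 17, and that of Fkbp5 holds none.
Snd1, miR-142-3p (chr6:28933577-28933583, plus strand): cagactgtACACTAAaaataatt

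All 29 silencing effectors were tested. They are Tnrc6c, described above, and the deadenylase, decapping and translation factors that act downstream of GW182. The QLF test called 0 higher and 2 lower, 6.9% against 18.8% of all tested genes. Of the 29 estimates, 25 lay below 0, with a median log2 fold change of -0.11 against 0.02 over all tested genes. The 2 genes called lower were Edc3, an enhancer of decapping, and Patl1, a decapping and P-body factor. Edc3 measured 55.1, 54.4 and 54.4 normalized CPM in WT and 43.8, 44.1 and 46.8 in KO. Its log2 fold change was -0.28 (SE 0.08, FDR = 0.0494 in the QLF test). Patl1 measured 93.1, 99.5 and 110.1 normalized CPM in WT and 78.9, 78.6 and 83.5 in KO. Its log2 fold change was -0.33 (SE 0.09, FDR = 0.0442 in the QLF test). The groups did not overlap for either gene. The 3′ UTR of Edc3 holds 4 sites of 7 bases, 1 for miR-142-3p and 3 for miR-142-5p, and that of Patl1 holds 1 for miR-142-5p. Both calls were lost when any 1 library was left out, with an FDR of 0.0686 to 0.154 for Edc3 and 0.0532 to 0.159 for Patl1 (0.0984 and 0.0640 without KO replicate 1).

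None of the 8 tailing and turnover genes was called by the QLF test, and 0 had an unadjusted p under 0.05. The gene with the smallest p was Papd4, now named Tent2, a poly(A) polymerase that extends miRNA ends, at a log2 fold change of 0.25 (SE 0.14, FDR = 0.248), or 0.26 without KO replicate 1. Of the 7 miRNA host transcripts in the matrix, 3 were tested (Mir17hg, Mir155hg and Mir22hg), and 0 were called or had an unadjusted p under 0.05. Mir17hg, the primary transcript of the miR-17-92 cluster, measured 8.68, 12.1 and 19.0 normalized CPM in WT and 7.55, 14.5 and 6.71 in KO. The libraries interleaved, and the log2 fold change was -0.48 (SE 0.38, FDR = 0.416 in the QLF test), or -0.35 without KO replicate 1.

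**Figure D5:**
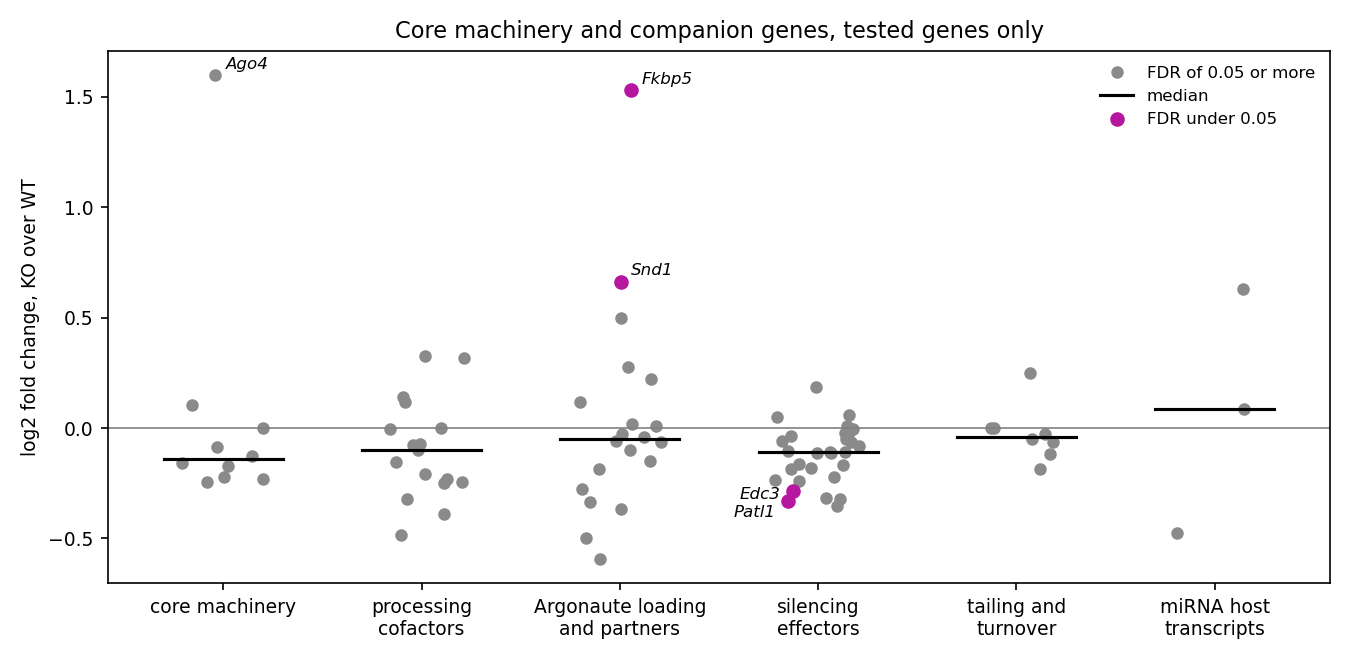
Log2 fold change, KO over WT (y axis), of the tested genes of the core machinery, the 4 companion lists and the miRNA host transcripts. Each point is a gene, black lines are list medians, and coloured points passed the QLF test at an FDR of 0.05. Fkbp5 (1.53) and Snd1 (0.66) lie above the rest of the companion genes that passed, and Edc3 and Patl1 below 0.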

How the data were processed

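One RNA-seq library was made per mouse from sorted Treg cells. The authors aligned 51-base single-end reads to mm10 with HISAT and summed them per gene, ignoring strand. They deposited these whole-number counts unnormalized. All 6 libraries entered the fit. The fit, made in edgeR 4.0.16 under R 4.3.3, kept genes over 1 CPM in 3 or more libraries (TMM scaling, QLF test, Benjamini-Hochberg FDR of 0.05 over all tested genes). DESeq2 1.42.0 was an alternative. SEs and 95% intervals come from the QLF fit, in which the spread assigned to a gene is moderated by that of other genes. The p-values thus rest on the spread between these mice as modelled over all tested genes, not on 1 gene alone. Exact permutation tests were two-sided on log2 of normalized CPM plus 0.5. The common biological coefficient of variation was 0.212. The steps were tested on simulated data. For the fit, the simulated counts varied less between libraries than these data and held no library like KO replicate 1. The changes simulated for the fit were larger than the estimates of the machinery genes other than Ago4, so detection of differences of that size was not tested.

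Positions and exon lengths are from GENCODE vM21 on GRCm38, the build mm10 names. Named genes were all 10 members, each companion gene with an FDR under 0.05 or, where a list had none, the one with the smallest p, and the targeted gene. Tnrc6c was named as a paralog. The members and lists were chosen with earlier results of these data known.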

Additional observations from a re-analysis of the deposited data

How the results depend on the processing

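Across 17 other settings (16 for Ago4, which was untested with CPM above 1 required in all 6 libraries), the fold changes of the machinery genes kept their direction, except for Xpo5, which turned from -0.0001 to 0.0039 with that filter, to 0.0322 without WT replicate 1 and to 0.0465 without KO replicate 1. With library size only, the estimates of all machinery genes moved down, to -0.32 for Ago1, -0.31 for Drosha and -0.30 for Dicer1. The median over all tested genes moved down as well, from 0.02 to -0.06. At an unadjusted p under 0.05 the QLF test then held 4 machinery genes, against 2 in the main fit. The gene Bzrap1 took 2.07 to 2.43% of counts in KO and 0.0041 to 0.0084% in WT. With Bzrap1 left out, Ago1 was at -0.27. The number of machinery genes called was 1 with the likelihood ratio test (Ago4, 1.60), 1 at an FDR under 0.1, and 0 to 1 when single libraries were left out. Leave-one-out log2 fold changes ranged from -0.33 to -0.16 for Dicer1, from -0.066 to 0.0465 for Xpo5 and from 0.62 to 1.90 for Ago4. Companion genes called numbered 9 with library size only and with upper quartile scaling (7 lower each) and 10 with DESeq2 (8 lower). They numbered 2 (0 lower) with the likelihood ratio test, the exact test, all 3 edgeR tests together and no filter, and 2 to 6 (0 to 3 lower) when single libraries were left out. With the stricter filter and the robust fit 1 was lower. Fkbp5 and Snd1 were called in 17 of 17 settings, Edc3 in 5 and Patl1 in 7. Counting 8-base sites only left 2 machinery genes with a site. For miR-142-3p these were 2 of 10, against 6.83% of tested genes with a 3′ UTR and 18.0% of those with at least 3000 bases. For miR-142-5p they were 1 of 10, against 5.11% and 13.5%. The causes were not tested.

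Same-numbered WT and KO libraries did not deviate together (correlations 0.0731, -0.0124 and -0.188). With 3 libraries per group these values cannot show whether same-numbered libraries shared a preparation. A replicate block called 0 machinery genes and 2 companion genes (0 lower).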
